A study of Solanum tuberosum with 8 samples.

Results

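Tubers of high *AGPaseS-a* expression were compared with tubers of low *AGPaseS-a* expression, which takes in 8 of the 8 libraries of the series. The plants were untreated potatoes (*Solanum tuberosum*) of the diploid hybrid population 12-3, grown in pots under a tent, and RNA came from fully developed tubers, ground and frozen after harvest. The high class held bulk H1 (high starch) and bulk L1 (low starch), and the low class held bulk H2 (high starch) and bulk L2 (low starch). Each bulk pooled RNA of several plants and was read as replicate libraries A and B, which gave 4 libraries of the high class and 4 of the low class. A library is therefore a pool and not a plant, and p-values measure only the spread between libraries, because the sources do not say whether A and B, called biological replicates, pooled the same plants. The class of a plant came from a separate assay of *AGPaseS-a* expression and not from these counts, so the libraries were not sorted by any value given below. In pooled tissue, fewer cells of a type and less RNA per cell cannot be told apart.

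ADP-glucose pyrophosphorylase (AGPase) makes ADP-glucose, the sugar donor of the starch synthases, inside the amyloplast. It is built of small subunits and large subunits, and *AGPaseS-a* is one of the genes of the large subunit. In the progeny of a cross, genes that lie close together on a chromosome are mostly inherited together, so plants sorted by the expression of one gene can also differ at other places in the genome. The reference used for the counts is cut into scaffolds, which are assembled stretches of sequence with no chromosome number given with the counts. The study itself mapped markers of some genes to chromosomes, that of *AGPaseS-a* to chromosome I.

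Primers that the study lists for *AGPaseS-a* are shown because the class rests on this gene. Both are in lower case from 5′ to 3′, and no part is marked. For the assay that sorted the plants the study refers to earlier work, so it was not established that these primers served in it.
AGPaseS-a forward: tcatgatgggagcagactcctacc
AGPaseS-a reverse: ctttcctatctttgcgttcttgt

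The primers could not be placed on a counted gene, since no transcript sequence was at hand, so the label could only be set beside all genes annotated as AGPase. *AGPS1*, annotated as large subunit 1-like (scaffold NW_006239449.1 of SolTub_3.0, 264717 to 269691), had 2260 and 2217 CPM (the normalised read count, scaled to the size of the library) in H1 and 2247 and 2033 CPM in L1, against 2843 and 1307 CPM in H2 and 2106 and 1459 CPM in L2. The 4 high-class libraries lay inside the range of the 4 low-class libraries, and the low class was the more scattered, at 2189 ± 106 CPM in the high class and 1929 ± 701 CPM in the low class (SD, n = 4 libraries each). Its log2 fold change (log2FC) of high over low class was 0.19 (standard error 0.257). The large subunit 2 gene LOC102600909 was at 41.2 ± 10.3 CPM in the high class and 44.7 ± 4.31 CPM in the low class, and the small subunit gene LOC102577790 at 1367 ± 404 CPM in the high class and 1583 ± 427 CPM in the low class (SD, n = 4 each). Their log2FCs of -0.11 and -0.22 were smaller than their standard errors of 0.205 and 0.269. The large subunit 3 gene LOC102582750 and an inactive small subunit gene, LOC102598180, had at most 7 counts in any library and were not tested. The counts of these 5 genes therefore do not show the contrast by which the plants were sorted. The study itself reported that *AGPaseS-a* was hard to read by RNA-seq. It named a small transcript or overlap with other transcripts as possible reasons, which were not tested here.

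The counts on genes summed to 15293539 in H1 replicate A, the lowest, and to 31943185 in L1 replicate A, the highest. H1 replicate A and H2 replicate B stood apart from the other libraries on the first principal component, at -74.7 and -43.5 against 15.3 to 26.1, and the component held 46.5% of the variance. They belong to different classes, so each class held 1 of them. Summed levels of the cytosolic ribosomal proteins were highest in the same libraries, at 99800 CPM in H1 replicate A and 80800 CPM in H2 replicate B, against 46200 to 56400 CPM in the other libraries. Patatins, the storage proteins of the tuber, summed to 14400 to 25500 CPM in the high class and 13500 to 23900 CPM in the low class, and proteinase inhibitors to 29300 to 53700 CPM in the high class and 30500 to 41200 CPM in the low class. Photosynthesis genes summed to 517 to 859 CPM in the high class and 432 to 879 CPM in the low class, so the marker lists of tuber and leaf overlapped between the classes.

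The first question was how many genes differed between the classes once the starch level was taken into account. With starch level as a block, edgeR's quasi-likelihood test called 1 of 20389 tested genes (0.0049%). A call needed a Benjamini-Hochberg FDR below 0.05 together with a log2FC of 1.5 or more in size. The unadjusted p was under 0.05 for 641 genes (3.14%), 308 of them higher (1.51%) and 333 lower (1.63%) in the high class. The starch term of the same fit called 0 genes and had 1866 (9.15%) at an unadjusted p under 0.05. The interaction of class and starch called 0 genes, with 321 genes (1.57%) at an unadjusted p under 0.05. DESeq2 called 35 genes (0.172%) for the class with the same thresholds, 60 for the starch term and 6 for the interaction. L1 over L2 alone, and H1 over H2 alone, called 0 genes each in edgeR, with an unadjusted p under 0.05 for 345 genes (1.69%) and 619 genes (3.04%). In both at once it was under 0.05 for 63 genes with the same sign (0.309%) and 6 with opposite signs (0.0294%). With no regard to the test, 461 genes (2.26%) had all 4 high-class libraries on one side of all 4 low-class libraries, 196 higher (0.961%) and 265 lower (1.3%). Scaling by library totals alone gave 137 higher and 315 lower. Genes with no class difference also enter both counts, and an unadjusted p under 0.05 is expected for a share of 0.05 of them. The 641 genes at such a p and the 461 without overlap are thus not counts of genes that differ. A gene is called separated here when it had both no overlap and an unadjusted p under 0.05, which held for 253 genes (1.24%), 110 higher (0.54%) and 143 lower (0.701%). Separated genes other than the called one did not pass the FDR in edgeR and are described by their values, though DESeq2 called some of them, such as LOC102605981 and LOC102580013.

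The called gene was LOC102600338, an uncharacterized noncoding RNA on scaffold NW_006239476.1 (289749 to 292472). It had 12.2 and 18.8 CPM in H1 and 21.1 and 18.6 CPM in L1, against 2.13 and 1.76 CPM in H2 and 1.65 and 1.58 CPM in L2. It rose in the high class with a log2FC of 3.31 (standard error 0.259, FDR 0.00603 in edgeR's quasi-likelihood test), and all 4 high-class libraries lay above all 4 low-class libraries. The log2FC was 3.62 (standard error 0.36) for L1 over L2 and 2.99 (standard error 0.36) for H1 over H2. Leaving out H2 replicate B, L2 replicate A or L2 replicate B ended the call, with an FDR of 0.0639, 0.0756 and 0.0698 in edgeR, at a log2FC of 3.31, 3.25 and 3.22.

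Among abundant genes that were lower in the high class was LOC102605500, a probable flavin-containing monooxygenase on scaffold NW_006239419.1. It was at 113 and 148 CPM in H1 and 148 and 173 CPM in L1, against 394 and 320 CPM in H2 and 387 and 318 CPM in L2 (log2FC -1.29, standard error 0.183, FDR 0.213 in edgeR). Every low-class library stood well above every high-class library, and the starch levels gave like values, with a log2FC of -1.14 for L1 over L2 and -1.45 for H1 over H2. LOC102583272, an auxin-repressed protein-like gene, was at 2487 and 1429 CPM in H1 and 1539 and 466 CPM in L1, against 3346 and 6082 CPM in H2 and 2739 and 3211 CPM in L2 (log2FC -1.42, standard error 0.382). Its replicates were far apart in both classes, though the classes did not overlap. Of the most abundant genes without overlap that were higher in the high class, LOC102582131, a snakin-2-like gene (snakins are small antimicrobial peptides first purified from potato tubers), was at 1222 and 1313 CPM in H1 and 1515 and 1605 CPM in L1, against 542 and 905 CPM in H2 and 541 and 455 CPM in L2 (log2FC 1.23, standard error 0.247). A cyprosin-like aspartic protease, LOC102582495, averaged 1253 ± 95.5 CPM in the high class and 918 ± 82.6 CPM in the low class (SD, n = 4 each), and the induced stolon tip protein gene LOC102595237 averaged 2098 ± 460 CPM in the high class and 1392 ± 279 CPM in the low class (SD, n = 4 each).

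**Figure D1:**
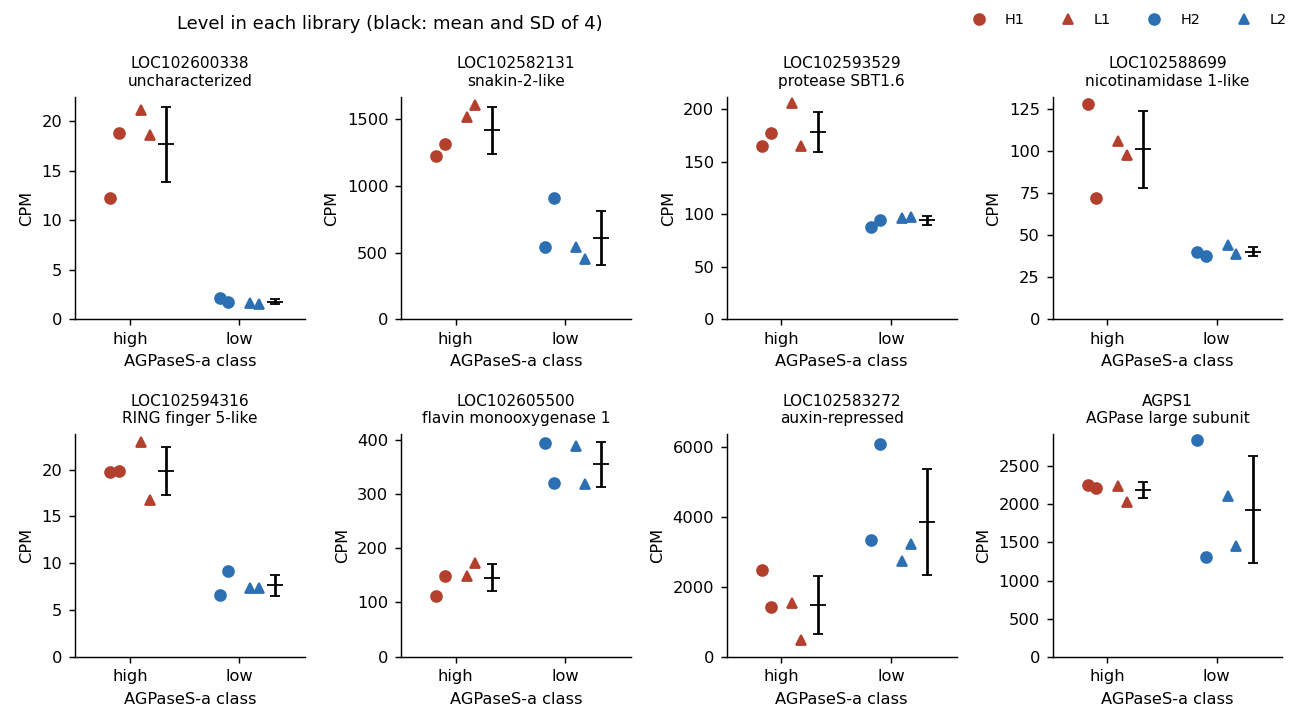
Level of 8 genes in each library, in CPM on a linear axis from 0, for the high class (H1 circles, L1 triangles) left of the low class (H2 circles, L2 triangles), with the mean and SD of 4 libraries in black. The classes do not overlap in 7 of the panels, while the high-class libraries of *AGPS1* lie within the range of the low class (1307 to 2843 CPM).

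Several of the largest differences concerned genes that one class hardly expressed. The metacaspase-3-like gene LOC102605981, of a family of cysteine proteases, was at 2.62 and 3.22 CPM in H1 and 5.05 and 4.28 CPM in L1, against 0.248 and 0 CPM in H2 and 0.0612 and 0.152 CPM in L2 (log2FC 4.93, standard error 0.756). In the other direction, the histone H3.v1-like gene LOC102590569 averaged 0.187 ± 0.112 CPM in the high class and 3.62 ± 2.52 CPM in the low class, and the BURP domain gene LOC102603606 averaged 0.215 ± 0.243 CPM in the high class and 2.57 ± 1.09 CPM in the low class (SD, n = 4 each). Genes with 0 counts in all 4 low-class libraries and counts in all 4 high-class libraries numbered 5, and the reverse held for 1 gene, LOC102578672. Such genes could enter the test only through the class that expressed them. The pseudogene LOC102580013 had 16, 22, 103 and 68 counts in the high class, which makes it at least 85.8-fold higher there when the low class is set at 3 counts over the group. The corresponding bounds were at least 55-fold for the pseudogene LOC107063081, 45.6-fold for LOC102584349, 33.7-fold for LOC102590321 and 15.6-fold for LOC102590535. LOC102578672 was at least 13.5-fold lower in the high class, where it had 0 counts in 4 libraries against 16, 14, 8 and 12 counts in the low class. All 5 genes without counts in the low class lay on the scaffolds described next. They are themselves separated genes and were counted when those scaffolds were chosen, so their place there is partly set by that choice. LOC102584349 is 1 of the 5 separated genes of NW_006239302.1, the lowest number that was taken.

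The second question was where in the genome the separated genes lay. They were partly gathered on few scaffolds, while 145 of the 253 (57.3%) lay outside the 12 scaffolds that held the most. Of 992 scaffolds with a tested gene, 871 held no separated gene, 86 held 1, 23 held 2 to 4 and 12 held at least 5, a threshold set after the values had been seen. These 12 leading scaffolds carried 1466 tested genes (7.19% of the genes tested) and 108 of the 253 separated genes (42.7%). The separated genes were 7.37% of the genes tested on the leading scaffolds and 0.766% of those on the other scaffolds. On the leading scaffolds 66 were higher and 42 lower in the high class, and on the other scaffolds 44 were higher and 101 lower. The leading scaffolds were chosen by these counts, which are a description. The starch term, which did not choose them, had an unadjusted p under 0.05 for 7.78% of the genes on the leading scaffolds and 9.26% of those on the others. The 3 scaffolds just outside the threshold, with 4 separated genes each, included that of *AGPS1*.

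**Figure D2:**
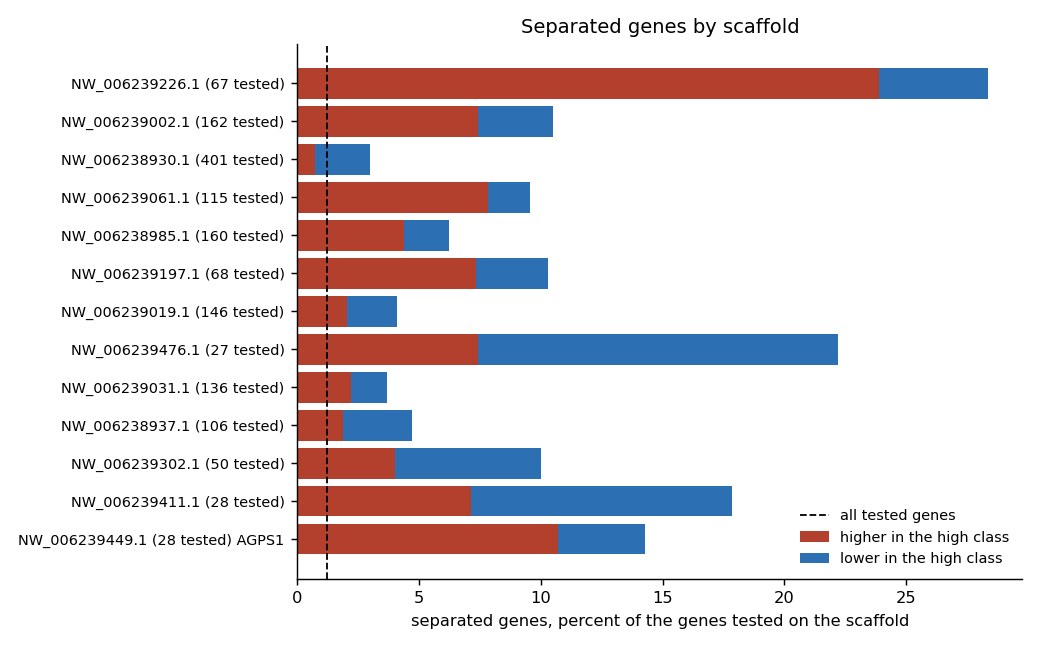
Separated genes as a percent of the genes tested, for the 12 leading scaffolds and, in the last row, the scaffold of AGPS1, split into genes higher and genes lower in the high class. The dashed line is the share over all tested genes (1.24%), and the bars reach from 2.99% on NW_006238930.1, which has the most tested genes, to 28.4% on NW_006239226.1.

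Since each scaffold was picked with both starch levels in view, the starch levels were also read apart, as an alternative chosen after seeing the data. L1 over L2 and H1 over H2 share no library, though 1 fit gave both and a gene has 1 estimate of its spread in both. Of the 403 scaffolds with at least 10 tested genes, 17 (4.22%) had an unadjusted p under 0.05 in L1 over L2 for at least 10% of their genes. On these 17 scaffolds, 10.1% of the 864 genes had an unadjusted p under 0.05 in H1 over H2, against 2.72% on the other scaffolds. In reverse, 26 scaffolds (6.45%) were picked in H1 over H2, and 8.54% of their 855 genes had an unadjusted p under 0.05 in L1 over L2, against 1.39% elsewhere. The lists had 10 scaffolds in common, 58.8% of the first and 38.5% of the second, and the scaffold of *AGPS1* was one of them. On that scaffold, of 28 tested genes, 6 had such a p in L1 over L2 and 3 in H1 over H2. Only 1 gene had it in both with the same sign, and the log2FCs of the starch levels had a correlation of -0.13 across its genes. Of the 142 genes with an unadjusted p under 0.05 in L1 over L2 on the 17 scaffolds, 114 (80.3%) had the same sign in H1 over H2, as did 131 of 203 (64.5%) elsewhere. In reverse, of the 117 genes with an unadjusted p under 0.05 in H1 over H2 on the 26 scaffolds, 87 (74.4%) had the same sign in L1 over L2, as did 327 of 502 (65.1%) elsewhere. Without H1 replicate A and H2 replicate B, with the scaffolds as picked from all libraries, H1 and H2 hold 1 library each, which is assumed to vary like those of L1 and L2. The shares in H1 over H2 were then 8.65% on the scaffolds picked in L1 over L2 and 5.02% elsewhere, and those in L1 over L2 were 17.2% on the scaffolds picked in H1 over H2 and 4.83% elsewhere.

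**Figure D3:**
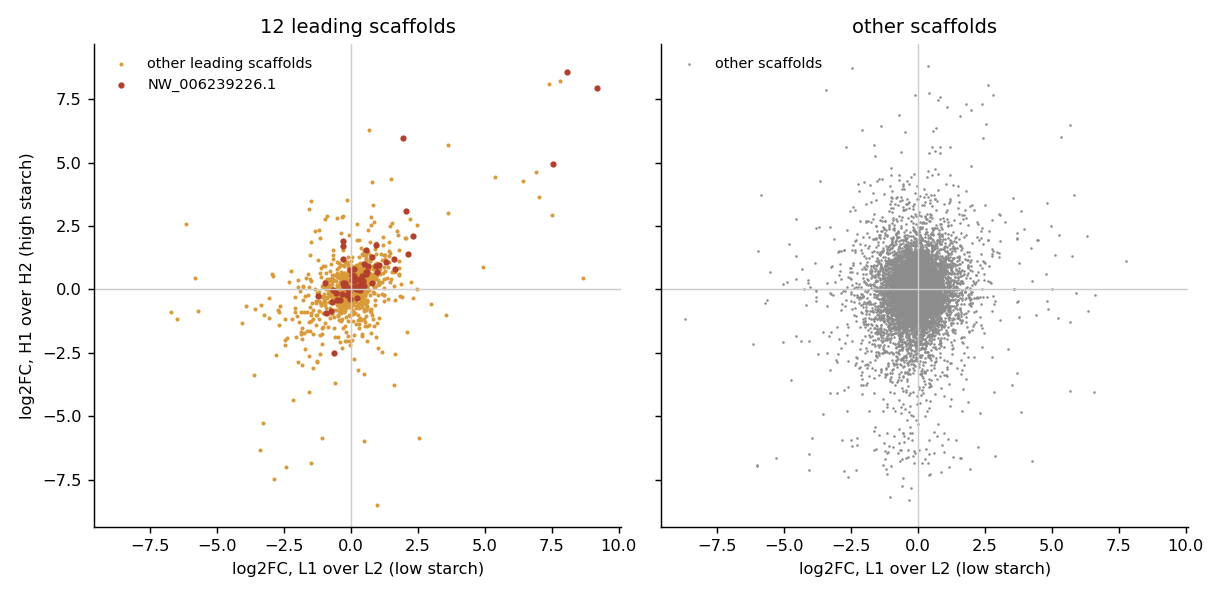
The log2FC of H1 over H2 (high starch) against the log2FC of L1 over L2 (low starch), a point for each tested gene, on the 12 leading scaffolds (left, with NW_006239226.1 in red) and on the other scaffolds (right). The 67 points of NW_006239226.1 run along the diagonal, but the leading scaffolds were chosen for genes separated in both starch levels together, so the panels differ by that choice.

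Scaffold NW_006239226.1 held the most separated genes, 19 of 67 tested (28.4%), with 16 higher and 3 lower in the high class. An unadjusted p under 0.05 was found for 25 of its genes (37.3%) in the class comparison and for 3 (4.48%) in the starch term, and 11 genes had an unadjusted p under 0.05 with the same sign in both L1 over L2 and H1 over H2. The separated genes that were higher were spread from the arginine decarboxylase gene LOC102596487 at 10414 to the SKP1-like gene LOC102601655 at 783506. Arginine decarboxylase, an enzyme of polyamine synthesis, was at 101 and 151 CPM in H1 and 84.2 and 124 CPM in L1, against 60.3 and 15.4 CPM in H2 and 47.2 and 60.8 CPM in L2. Its neighbour LOC102596820, annotated as a D-sorbitol-6-phosphate dehydrogenase, averaged 161 ± 25.5 CPM in the high class and 80.5 ± 16.4 CPM in the low class (SD, n = 4 each). A run of 11 separated genes of the same direction, each starting at most 100 kb after the one before, reached from 250097 to 680441. It held the snakin-2-like gene given above, a thaumatin-like gene, a subtilisin-like protease, a proteasome subunit, a peptidyl-prolyl isomerase, a synaptotagmin and both pseudogenes without counts in the low class. The protease SBT1.6 (LOC102593529), of a family of secreted serine proteases, was at 165 and 177 CPM in H1 and 206 and 165 CPM in L1, against 88.2 and 94.4 CPM in H2 and 96.8 and 97.3 CPM in L2 (log2FC 0.92, standard error 0.15). Every high-class library of this gene thus had well above the level of any low-class library, and the low class hardly varied. The thaumatin-like gene LOC102590933 was at 26.6 and 30.1 CPM in H1 and 36.4 and 36.7 CPM in L1, against 14.7 and 12.2 CPM in H2 and 16.8 and 12.2 CPM in L2 (log2FC 1.2, standard error 0.18, FDR 0.213 in edgeR). The separated genes that were lower were *BBR/BPC4*, a BASIC PENTACYSTEINE transcription factor (log2FC -0.48, standard error 0.171), the U11/U12 small nuclear ribonucleoprotein gene LOC102602989 (log2FC -0.79, standard error 0.206) and the MSI2-like WD-40 gene LOC102599978 (log2FC -0.93, standard error 0.25). The number of genes with an unadjusted p under 0.05 on this scaffold was 16 without L2 replicate A and 16 without L2 replicate B, and 32 without both H1 replicate A and H2 replicate B.

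On scaffold NW_006239061.1, 11 of 115 tested genes were separated, and 6 of them formed a run of higher genes from 224544 to 304169. The run opened with LOC102588699, a nicotinamidase 1-like gene of the recycling of NAD, at 128 and 72.2 CPM in H1 and 106 and 97.8 CPM in L1, against 40 and 37.8 CPM in H2 and 44.4 and 39 CPM in L2 (log2FC 1.33, standard error 0.198). It was followed by the EXECUTER 1 gene LOC102589029, whose counterpart in Arabidopsis acts in singlet oxygen signalling, at 59.7 ± 4.28 CPM in the high class and 41.1 ± 6.32 CPM in the low class (SD, n = 4 each). Further along came the terpene synthase genes LOC102589669 and LOC102590892, with log2FCs of 2.01 (standard error 0.567) and 2.63 (standard error 1.11), and between them 2 uncharacterized genes without counts in the low class. Whether these share reads with other terpene synthases was not tested, so their separate values are uncertain. The metacaspase-3-like gene given above lies on the same scaffold at 889937.

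Scaffold NW_006239476.1 is short, with 27 tested genes, of which 6 were separated and 10 (37.0%) had an unadjusted p under 0.05. Beside the called LOC102600338 it carried LOC102594316, a RING finger 5-like gene (RING proteins are often ubiquitin ligases), at 19.7 and 19.9 CPM in H1 and 23 and 16.7 CPM in L1, against 6.59 and 9.2 CPM in H2 and 7.35 and 7.36 CPM in L2 (log2FC 1.38, standard error 0.199). The other 4 were lower in the high class. The polyol transporter gene LOC102599356 averaged 66.1 ± 15.6 CPM in the high class and 113 ± 11.5 CPM in the low class, and LOC102592556, which encodes the last enzyme of the plastid isoprenoid precursor pathway, 291 ± 44.2 CPM in the high class and 398 ± 31 CPM in the low class (SD, n = 4 each). The scaffold thus carried genes of both directions within short distances, with LOC102599356, LOC102600338 and the BURP domain gene LOC102603606 starting at 266742, 289749 and 304499. It also holds *9-DES* (LOC102588225), the 9-divinyl ether synthase, whose classes overlapped in CPM. The log2FC of *9-DES* was -2.64 (standard error 0.38) for L1 over L2 and -0.64 (standard error 0.36) for H1 over H2. In the study's genetic map, the markers of *9-DES* and of *AGPaseS-a* both lie on chromosome I. Whether the separated genes of this scaffold are inherited with *AGPaseS-a* was not tested.

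Among the other leading scaffolds, NW_006239002.1 had 17 among 162 tested, 12 of them higher, including the arabinogalactan protein 9 gene LOC102594099 at 16.2 ± 7.52 CPM in the high class and 3.98 ± 1.21 CPM in the low class (SD, n = 4 each). NW_006238930.1 had 12 among 401, of which 9 were lower, with the histone H3.v1-like gene and the pollen allergen-like gene LOC102583450, at 1.94 ± 0.929 CPM in the high class and 9.73 ± 2.83 CPM in the low class (SD, n = 4 each). NW_006239197.1 had 7 among 68, including the flap endonuclease 1 gene LOC102602982 of DNA replication, at 33.5 ± 9.91 CPM in the high class and 16.3 ± 2.02 CPM in the low class (SD, n = 4 each). NW_006239031.1, which carries the cruciferin gene *PGCRURSE5*, had 5 among 136, and *PGCRURSE5* was not one of them. The study mapped the marker of *PGCRURSE5* to chromosome I, like that of *AGPaseS-a*. Over all scaffolds the separated genes formed 26 runs of at least 2 genes with starts within 100 kb in the same direction, with 73 genes in all, and 19 of the runs lay on leading scaffolds.

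The scaffold of *AGPS1*, NW_006239449.1, had 28 tested genes, of which 4 were separated and 7 (25%) had an unadjusted p under 0.05. The gene just before *AGPS1*, LOC102591212, which starts at 259768, was at 39.9 and 37.1 CPM in H1 and 24.6 and 20.2 CPM in L1, against 50.2 and 44.6 CPM in H2 and 48.2 and 48.9 CPM in L2 (log2FC -0.71, standard error 0.202). On the other side, LOC102592319, which starts at 304924, was at 4.68 and 5.32 CPM in H1 and 2.63 and 3.39 CPM in L1, against 0.638 and 0.344 CPM in H2 and 0.919 and 0.576 CPM in L2 (log2FC 2.65, standard error 0.468, FDR 0.334 in edgeR). LOC102592890, between them, had a log2FC of 2.45 (standard error 1.01), and *TYKY2*, a subunit of mitochondrial complex I, averaged 72 ± 14.2 CPM in the high class and 46.9 ± 3.34 CPM in the low class (SD, n = 4 each). The separated gene just before *AGPS1* was thus lower and those after it were higher in the high class, while the classes of *AGPS1* overlapped. These neighbours were chosen after their values had been seen.

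**Figure D4:**
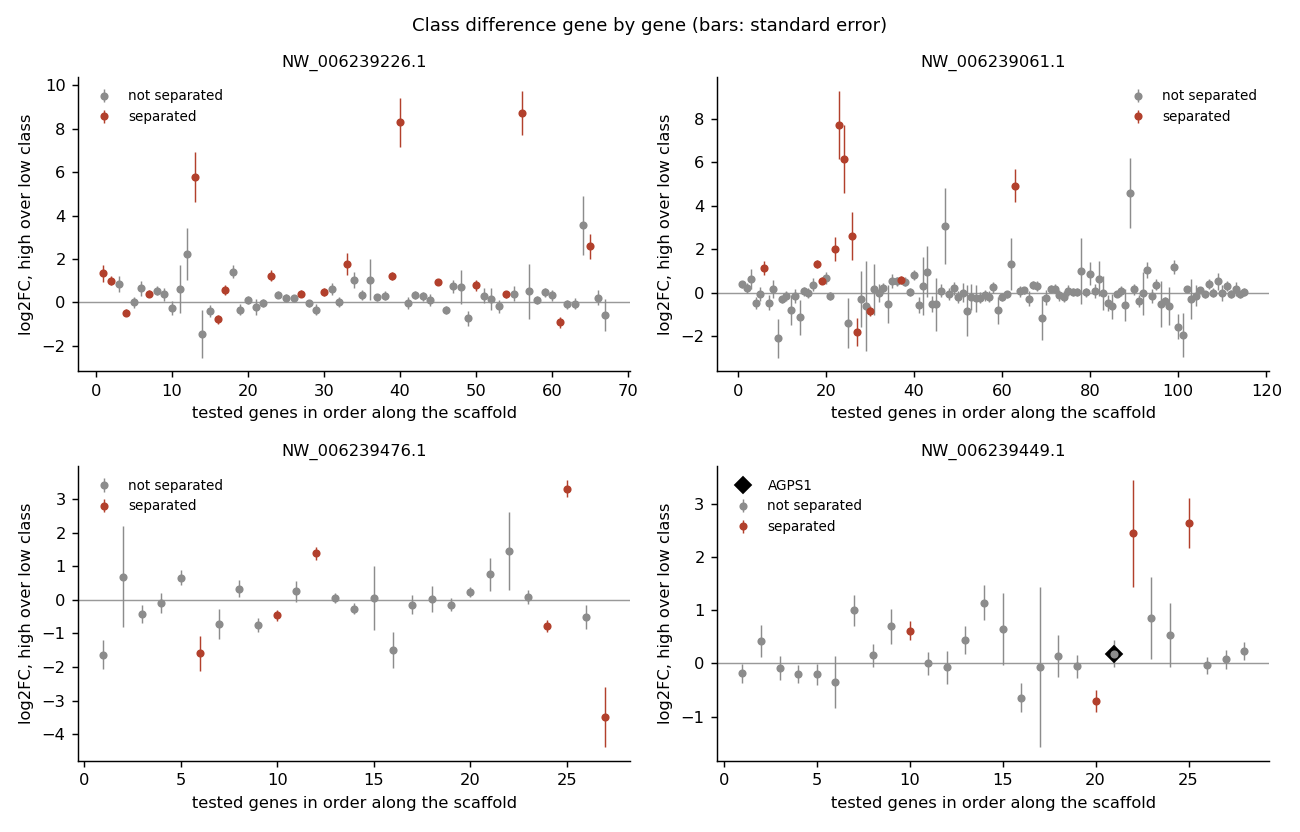
The log2FC of high over low class with its standard error for every tested gene of 4 scaffolds, in gene order, with separated genes in red. Separated genes are spread along NW_006239226.1, most of those on NW_006239061.1 are gathered in 1 stretch, NW_006239476.1 has them in both directions, and AGPS1 (black diamond, 0.19) lies between separated neighbours on NW_006239449.1.

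The third question was whether families of genes with a shared product name differed. The 85 tested enzymes of starch synthesis, starch breakdown, and sucrose cleavage and hexose phosphorylation, AGPase included, had no gene with an unadjusted p under 0.05, where all genes had 3.14%, and no gene without overlap, where all genes had 2.26%. Their log2FCs lay between -2.05 and 0.89, and the medians of these lists were -0.11 for AGPase, 0.01 for the other enzymes of starch synthesis, -0.02 for starch breakdown and 0.03 for sucrose cleavage, beside 0.00 for all tested genes. Without H1 replicate A and H2 replicate B the AGPase median was 0.02. In 29 sugar transporters, 4 were higher and 1 lower at an unadjusted p under 0.05. The SWEET genes LOC102591902 (SWEET12-like) and LOC102599419 (SWEET15-like), of a family that exports sugar from cells, had log2FCs of 2.70 and 2.29, and in both the L1 replicates were far apart, at 33.3 and 4.18 CPM for the first and 130 and 12.5 CPM for the second. Another, LOC102584909 (SWEET16-like) on the leading scaffold NW_006238985.1, averaged 6.61 ± 2.59 CPM in the high class and 2.13 ± 1.23 CPM in the low class (SD, n = 4 each), with overlapping classes. The only sugar transporter without overlap was LOC102584588, also SWEET16-like and on that scaffold, added after its values had been seen. It was at 3.18 and 2.85 CPM in H1 and 1.35 and 4.52 CPM in L1, against 1.03 and 0 CPM in H2 and 1.07 and 1.06 CPM in L2 (log2FC 1.97, standard error 0.868).

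Storage and defence families followed. Over all tested genes, 1.51% were higher and 1.63% lower at an unadjusted p under 0.05, or 3.14% in all. Of 52 proteinase inhibitors, 6 were higher and 2 lower at an unadjusted p under 0.05, and the median log2FC was 0.17, or 0.02 without H1 replicate A and H2 replicate B. The metallocarboxypeptidase inhibitor gene LOC107063047 was the only one higher without overlap, at 48.3 ± 7.04 CPM in the high class and 25.7 ± 5.33 CPM in the low class, and the cysteine protease inhibitor gene LOC102594586 the only one lower without overlap, at 93.7 ± 33.5 CPM in the high class and 179 ± 14 CPM in the low class (SD, n = 4 each). Of 20 patatins, 2 were lower and none higher, with a median of -0.42. Pathogenesis-related and MLP-like proteins had 7 lower and 0 higher genes among 64 and a median of -0.36, but none of the 64 was without overlap. The osmotin-like gene LOC102583784, of a family of antifungal proteins, was at 0.327 to 3.1 CPM in the high class, against 34.3 CPM in H2 replicate A and 1.99 to 3.31 CPM in the other low-class libraries. Of 107 late blight resistance homologs 1 was higher (0.935%), and of 180 other disease resistance proteins 4 were higher and 0 lower (2.22%). Both shares were below that over all genes. Among 33 oxylipin enzymes, 4 were higher and 2 lower. The probable 9S-lipoxygenase gene LOC102598541, of an enzyme that oxygenates linoleic acid, was at 9644 and 7305 CPM in H1 and 4327 and 3020 CPM in L1, against 4776 and 4801 CPM in H2 and 1807 and 730 CPM in L2 (log2FC 1.18, standard error 0.316). Within each starch level the high class was above the low class, but across the levels the classes overlapped.

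Glutathione S-transferases, which conjugate glutathione to toxic compounds, had 5 lower and 1 higher gene among 39 at an unadjusted p under 0.05. The share of this list was 15.4%, beside 3.14% over all genes, and its median was -0.33. Of the 5, LOC102600687, LOC102599376, LOC102599054 and LOC102598723 start between 49247 and 71575 on scaffold NW_006239771.1, and 3 of these were separated. LOC102600687 was at 8.5 and 11 CPM in H1 and 7.15 and 12.7 CPM in L1, against 27.4 and 14.7 CPM in H2 and 27.4 and 21.4 CPM in L2 (log2FC -1.21, standard error 0.27). The 4 share a product name and were not compared in sequence, so it was not tested whether they share reads. Periderm, suberin and wax genes had 6 lower and 0 higher among 88, with the fatty acid omega-hydroxylase CYP86A33 (LOC102577568), an enzyme of suberin in tuber skin, at 13.1 ± 3.23 CPM in the high class and 24.4 ± 5.87 CPM in the low class (SD, n = 4 each). Summed over the list, these genes stood at 1100 to 1560 CPM in the high class and 1280 to 1460 CPM in the low class. Phenylpropanoid and flavonoid enzymes had 6 lower and 1 higher among 102, including the cinnamoyl-CoA reductase gene LOC102591385 (log2FC -0.88, standard error 0.237) on a leading scaffold. Terpene synthases and sterol enzymes had 8 higher and 3 lower among 89 (12.4%), and cytochrome P450 genes 3 higher and 6 lower among 126 (7.14%). UDP-glycosyltransferases had 4 higher and 1 lower among 124 (4.03%), near the share over all genes.

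Heat shock proteins and chaperones had 6 lower and 1 higher gene among 162 (4.32%, beside 3.14% over all genes). Of these, the chloroplast small heat shock protein gene LOC102584503 had the lowest p, with a log2FC of -1.74 (standard error 0.421) and overlapping classes. Of 12 late embryogenesis proteins and dehydrins, which protect cells as they dry, 3 were higher and 0 lower, with a median of 0.73, or 0.51 without H1 replicate A and H2 replicate B. Their summed level was highest in these libraries, at 912 CPM in H1 replicate A and 334 CPM in H2 replicate B, against 178 to 224 CPM in the other high-class libraries and 121 to 167 CPM in the other low-class libraries, and the part of this in the result was not tested. The Lea14 homologs LOC102586330 and LOC102586655 lie side by side on NW_006238936.1 and averaged 4.23 ± 1.39 and 51.8 ± 9.98 CPM in the high class, against 1.36 ± 0.649 and 30.7 ± 9.45 CPM in the low class (SD, n = 4 each). The third, LOC102605148, was at 91 CPM in H1 replicate A and at 8.56 to 17.1 CPM in the other high-class libraries, against 1.94 to 24.7 CPM in the low class. None of 53 WRKY factors had an unadjusted p under 0.05, although 4 were lower in the high class without overlap, where 1.3% of all tested genes were. In the list of tuberization and flowering time, the BEL1-like homeodomain genes LOC102580336 and LOC102594888 were lower without overlap, at 87.3 ± 16.4 and 37.7 ± 6.67 CPM in the high class and 138 ± 25.1 and 48.2 ± 1.4 CPM in the low class (SD, n = 4 each). In potato, BEL1-like proteins are partners of KNOX proteins, and some of them promote tuber formation. Auxin response genes had 2 higher and 3 lower among 85 (5.88%), and ethylene genes 2 higher and 3 lower among 123 (4.07%). Of the ethylene genes, LOC102596628 is a sterol methyltransferase that entered by its name. Cell wall loosening and pectin enzymes had 1 higher and 2 lower among 100 (3.0%). Histones had 0 higher and 1 lower among 49 (2.04%), and cyclins and replication proteins 1 of each among 124 (1.61%). Cytosolic ribosomal proteins had 4 higher and 0 lower among 214 (1.87%, median 0.13), and photosynthesis genes 2 higher and 0 lower among 53 (3.77%). Seed storage globulins had 1 higher among 8, retroelement-related products 1 lower among 6, and alpha tubulins none among 3. The 4499 uncharacterized products had 70 higher and 73 lower genes (3.18%), close to the share over all genes. In the 32 lists LOC102600338 was the 1 gene called by edgeR, while DESeq2 also called members of other lists, among them *SWEET12-like*, *9-DES*, LOC102584503 and LOC102590569. In edgeR 6 lists had no gene with an unadjusted p under 0.05.

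**Figure D5:**
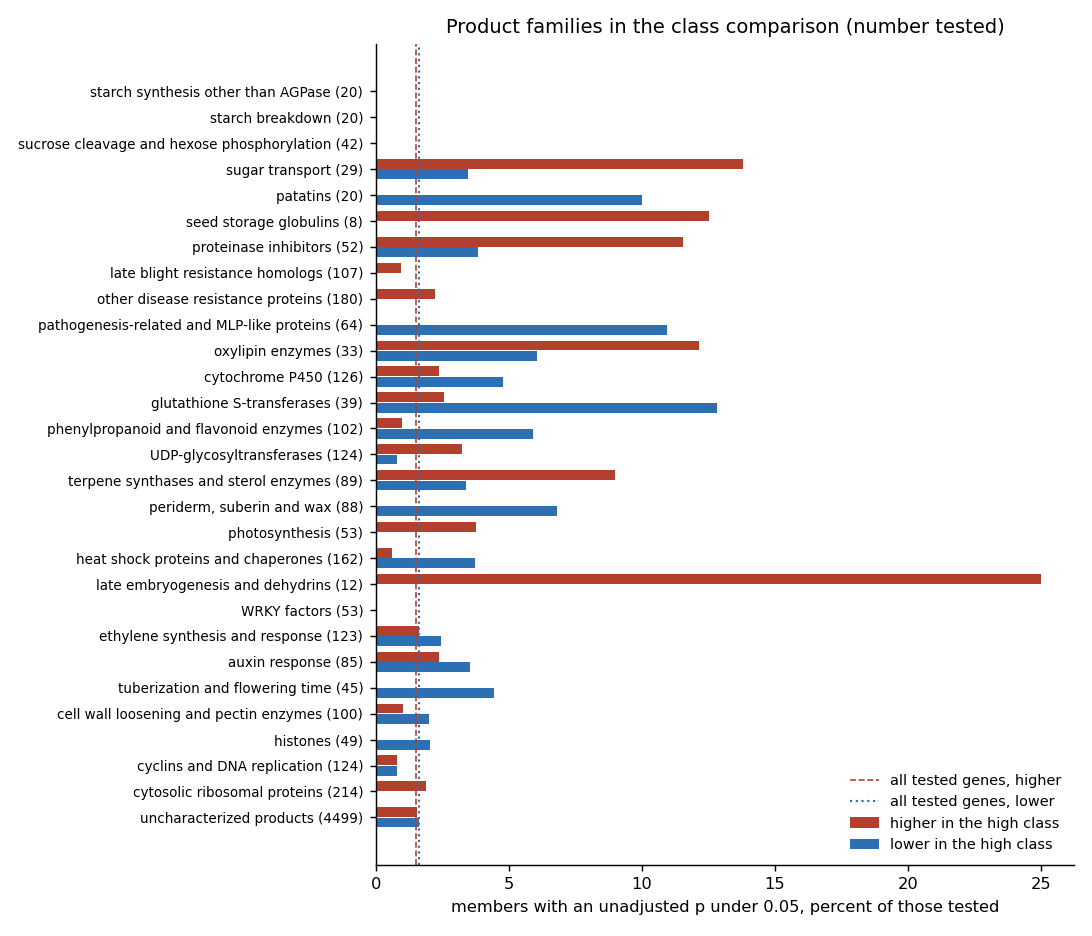
Members with an unadjusted p under 0.05 as a percent of those tested (number in parentheses), for product families with at least 8 tested genes, higher genes above lower genes, and lines for the shares over all tested genes (1.51% higher and 1.63% lower). Starch and sucrose enzymes and WRKY factors have no bar, and the largest bar, of late embryogenesis proteins and dehydrins, stands for 3 of 12 genes.

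Of the 15 genes that the study chose for their contrast in starch, 2 had an unadjusted p under 0.05 between the classes, *9-DES* and *SWEET12-like*, and none had classes without overlap. Their log2FCs of high over low class lay between -1.63 and 2.70.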

How the data were processed

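Poly(A) RNA of tubers was sequenced as 100-bp paired-end directional libraries. After trimming (Trimmomatic), reads were mapped by the authors to SolTub_3.0 using TopHat (2.0.9) on Bowtie (2.1.0), and HTSeq gave the raw counts of each gene that they deposited. Their comparison tables also hold fold changes and p-values, which were not used, and supplied the position and product of 25002 of 32768 genes. In the count table, 2 columns matched no sample and were left out.

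Libraries were assigned from their labels. Genes were filtered by bulk with filterByExpr, which left 20389, and scaled by TMM. The quasi-likelihood test of edgeR (4.0.16, R 4.3.3) was fitted with starch level and *AGPaseS-a* class (residual df 5), and a fit with 1 mean per bulk gave L1 over L2, H1 over H2 and the interaction. DESeq2 (1.42.0) was an alternative. The scripts were tested on simulated data. Bounds for genes at 0 used 3 counts over the group and cover counting error only.

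The members and gene lists were chosen with earlier results of these data known, lists were drawn from product names, and a gene can be in several. Genes were named if they were called, among the 12 separated genes with the largest log2FC in each direction at a mean of at least 1 CPM, an AGPase gene, among the 4 lowest p-values under 0.05 of a family, among the 5 most abundant without overlap in each direction, or a member of 1 of the 5 longest runs; genes of the study's own candidate list were given as counts. Genes of described scaffolds, neighbours of *AGPS1* and genes at 0 in 1 class were added after their values had been seen. Symbols followed RefSeq (SolTub_3.0), which matched 32736 genes.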

Additional observations from a re-analysis of the deposited data

Results flagged for a closer look

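Within a class of 4 libraries, a library was picked out when its gap to the nearest other library was above 0.829 of the range of the class. This held in 10 of 138 classes examined (67 genes, the total count and the number of genes detected). Independent normal values would give about 1 in 20, but most of these were CPM of chosen genes in bulks of high and low starch. The 10 can therefore not be read as an excess over that rate. H1 replicate A was the highest high-class library for LOC107063081 (2.3 CPM, others 1.25 to 1.31 CPM, gap 0.949 of the range), for the late embryogenesis gene LOC102605148 (91 CPM, others 8.56 to 17.1 CPM, gap 0.897), for the osmotin-like gene LOC102583784 (3.1 CPM, others 0.327 to 0.787 CPM, gap 0.834) and for the glutathione S-transferase gene LOC102599054 (3.02 CPM, others 1.31 to 1.6 CPM, gap 0.829). L1 replicate A was the highest high-class library for both SWEET genes, LOC102599419 (130 CPM, others 12.5 to 25 CPM, gap 0.894) and LOC102591902 (33.3 CPM, others 3.89 to 8.4 CPM, gap 0.847), and the only one with counts of LOC102602692 (0.0627 CPM, gap 1.0). In the low class, H2 replicate A was the highest for LOC102583784 (34.3 CPM, others 1.99 to 3.31 CPM, gap 0.959) and the only library with counts of LOC102596302 (0.0354 CPM, gap 1.0). H2 replicate B had 20213 genes detected, against 22925 to 23188 in the other low-class libraries (gap 0.912). H1 replicate A had fewer still, 19392 against 22193 to 23133 in the other high-class libraries, but was not picked out by this rule.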

How the results depend on the processing

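The number of called genes was 35 in DESeq2, and 0 in the low-starch bulks alone and in the high-starch bulks alone. It was 0 to 1 when 1 library was left out, with 0 without H2 replicate B, L2 replicate A or L2 replicate B. DESeq2 called 60 genes for the starch term and 6 for the interaction. The genes with an unadjusted p under 0.05 numbered 1088 in the low-starch bulks alone, 224 in the high-starch bulks alone, 1232 without both H1 replicate A and H2 replicate B, and 488 to 869 with 1 library left out. Without both of those libraries 2315 genes had no overlap, in a comparison of 3 against 3. Genes with no class difference separate more readily there than in the full comparison. The genes with an unadjusted p under 0.05 on NW_006239226.1 numbered 16 to 25 with 1 library left out, 7 in the high-starch bulks alone and 32 without both libraries. Their share on the leading scaffolds was 2.88% in the high-starch bulks alone, against 1.04% elsewhere. On the leading scaffolds it was 15.8% in DESeq2, against 3.62% elsewhere. Without both libraries these shares were 18.9% and 4.84%, and in the low-starch bulks alone 18.7% and 4.5%. The leading scaffolds had been chosen by the main fit to the same libraries. For scaffolds picked in one starch level and read in the other, picked from all libraries, leaving out both libraries gave 17.2% in L1 over L2, with 4.83% elsewhere, and 5.02% elsewhere in H1 over H2, where each bulk then held 1 library and the spread came from L1 and L2. Runs numbered 17 within 50 kb. The log2FC of LOC102600909 was -0.3368 to 0.03432 with 1 library left out and 0.01703 without both libraries, and that of LOC102577790 was -0.4478 to 0.03616, so neither kept its sign. The causes of these shifts were not tested.

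Deviations of A from the bulk mean had correlations of -0.536 to 0.196 between bulks. The lowest was that of H1 and H2, which hold H1 replicate A and H2 replicate B. With only A and B in each bulk, these values cannot show whether the letters paired the libraries. With the replicate block, 1 gene was called for the class, 0 for the starch term and 0 for the interaction, and 554 genes had an unadjusted p under 0.05. Of 2622 further values of single genes and family medians under the alternatives, 2583 kept their direction and their side of the threshold or, where there was no test, stayed within a fixed limit of change. That limit took no account of the spread. The single genes were chosen for an unadjusted p under 0.05 or no overlap in the same libraries, or as AGPase genes. All but LOC102600338 were uncalled in the main fit, so the count was largely fixed beforehand and is no measure of robustness. The limit on all results is the small number of pooled libraries, with a biological coefficient of variation of 0.411.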

Other observations

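The following separated genes of scaffold NW_006239002.1 were chosen after their values had been seen. LOC102583061, a probable N-acetyl-gamma-glutamyl-phosphate reductase of arginine synthesis, was at 240 and 196 CPM in H1 and 226 and 235 CPM in L1, against 168 and 122 CPM in H2 and 150 and 97.7 CPM in L2 (log2FC 0.74, standard error 0.201). It lies on another scaffold than the arginine decarboxylase gene LOC102596487, and both were higher in every high-class library than in any low-class library. The carboxylesterase gene LOC102579845 was at 127 and 48.6 CPM in H1 and 95 and 92.2 CPM in L1, against 36.3 and 28.6 CPM in H2 and 41.7 and 26.7 CPM in L2. The plastid pyruvate kinase gene LOC102604947, of a late step of glycolysis, ran the other way, at 24 to 33.7 CPM in the high class and 34.5 to 44 CPM in the low class. A receptor-like kinase gene on the same scaffold, LOC102588451, was at 14.6 to 31.7 CPM in the high class and 39.1 to 64.1 CPM in the low class.

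On NW_006239411.1, 2 genes that start at 264154 and 278366 had nearly all their counts in opposite classes. LOC102596302, a mitochondrial phosphate carrier, was at 0.251 to 0.548 CPM in the high class and at 0 to 0.0354 CPM in the low class. LOC102602692, a homoserine kinase-like gene, was at 0 to 0.0627 CPM in the high class and 0.152 to 0.612 CPM in the low class. Both levels are near the lowest that these libraries can show.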
